A study of Sus scrofa with 10 samples.

Results

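The genes described here are those of the fat cell's lipid droplet, with 2 hormones that fat cells secrete (adiponectin, ADIPOQ, and leptin, LEP) and adipsin (CFD), in the right ventricle of pigs. They were chosen by symbol from a list of 10 genes, and 8 of them had a row in the table, which holds 12378 genes with a symbol and 3260 without: CIDEA, CIDEC, PLIN2, PLIN4, PLIN5, ADIPOQ, PNPLA2 and CFD. PLIN1 and LEP are not analysed here. All 8 had a value in every library, so no member was lost to a filter on low values after that. RNA was sequenced from right ventricular biopsies of 5 CTEPH and 5 Sham pigs. CTEPH stands for chronic thromboembolic pulmonary hypertension, in which obstructed lung arteries raise the pressure that the right ventricle pumps against. Each pig gave 1 library, numbered s1, s3, s4, s5 and s9 for CTEPH and s2, s6, s7, s8 and s10 for Sham. The sources used here do not give how CTEPH was produced, nor the strain, sex or age of the pigs.

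Cells store surplus fatty acids as triglyceride in lipid droplets, whose surface carries perilipins that control the access of lipases. In fat cells, CIDE proteins sit where droplets touch and pass lipid from the smaller to the larger one, which yields a single large droplet. Heart muscle holds small droplets close to its mitochondria, while fat cells lie mainly under the epicardium and around vessels. Fat cells also secrete adiponectin, leptin and adipsin, the serine protease that starts the alternative complement pathway by cutting factor B.

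The values are on a log2 scale and were brought by the authors to nearly the same distribution in every library. Values up to 9.48 could be read back as whole counts, up to a common factor of 2. Relative depth from such counts averaged 1.05 ± 0.317 for CTEPH libraries and 1.02 ± 0.321 for Sham libraries (SD, n = 5 per group). In the fit of all genes (limma), 723 genes passed an adjusted p of 0.05, which was 4.62% of the table, 443 of them higher and 280 lower in CTEPH. Of 12 cardiomyocyte markers 10 were measured, and none of these had a count of 0 in any library. Of 20 fat cell markers outside the member list 11 were measured, also with none at 0.

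CIDEA, CFD and PLIN4 were called lower in CTEPH and no member was called higher. They were 3 of the 8 measured members, at 0.430, 0.417 and 0.461 times their Sham levels, while 1.79% of all genes were called lower and 2.83% higher (limma, Benjamini-Hochberg over all genes). ADIPOQ, CIDEC, PNPLA2, PLIN2 and PLIN5 did not pass. The median log2 difference over the 8 members was -0.53, against -0.03 over all genes. CFD was already known to be called in these data when the list was drawn up, so its call is no independent support. The count of 3 and the median include CFD, and all members were chosen with earlier results of these data known. In bulk tissue, fewer cells of a type and less RNA per cell cannot be told apart.

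CIDEA, a CIDE protein abundant in brown fat of mice, had values of 6.09, 6.87, 6.76, 6.04 and 7.05 (log2) in CTEPH libraries s1, s3, s4, s5 and s9. In Sham libraries s2, s6, s7, s8 and s10 it had 7.66, 8.51, 7.82, 7.51 and 7.39. All 5 CTEPH libraries lay below every Sham library, as was the case for 2.87% of all genes. It averaged 6.56 ± 0.470 across CTEPH libraries and 7.78 ± 0.440 across Sham libraries (SD, n = 5 per group), a log2 difference of -1.22 ± 0.28 (SE; limma adjusted p = 0.028). Its position in the RefSeq gene table of Sscrofa11.1 is chromosome 6, 97253074 to 97268355. Its recovered counts were 32, 54, 91, 35 and 49 in the CTEPH libraries, against 117, 262, 82, 72 and 70 in the Sham libraries. Divided by relative depth they were 32.8 to 67.7 in CTEPH and 83.0 to 173.6 in Sham, again without overlap. A fit on the recovered counts gave a log2 difference of -1.23 ± 0.30 (adjusted p = 0.0273, limma voom with Benjamini-Hochberg), where 4.55% of the 6752 genes fitted were called. The call was lost without CTEPH library s4 or s5 or Sham library s2, s6 or s7, at adjusted p = 0.051, 0.0651, 0.0544, 0.0721 and 0.064 (limma).

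CFD, adipsin, had values of 11.47, 10.44, 10.65, 10.44 and 11.83 (log2) in CTEPH libraries s1, s3, s4, s5 and s9. In Sham libraries s2, s6, s7, s8 and s10 it had 12.19, 13.06, 11.93, 12.04 and 11.93. The groups did not overlap, and CTEPH library s9 lay nearest to the lowest Sham libraries, s7 and s10. The log2 difference was -1.26 ± 0.30 (SE; limma adjusted p = 0.0294), which is 0.417 times the Sham level. CFD is a short gene on chromosome 2, from 77509792 to 77511988 of Sscrofa11.1. The call was lost without CTEPH library s3, s4 or s5, at adjusted p = 0.069, 0.0758 and 0.0736, and without Sham library s2, s6 or s8, at 0.0582, 0.0665 and 0.0528 (limma).

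PLIN4, the perilipin that coats small new droplets in fat cells and is also made in muscle, had values of 11.75, 12.69, 11.80, 12.78 and 12.25 (log2) in CTEPH libraries s1, s3, s4, s5 and s9. In Sham libraries s2, s6, s7, s8 and s10 it had 14.10, 13.11, 13.33, 12.69 and 13.63. The groups overlapped in a narrow band, where Sham library s8 lay below CTEPH library s5. The log2 difference was -1.12 ± 0.27 (SE; limma adjusted p = 0.0329), which is 0.461 times the Sham level. The call was lost without CTEPH library s1 or s4, at adjusted p = 0.0551 and 0.0838, and without Sham library s2, s6, s7 or s10, at 0.0713, 0.053, 0.0651 and 0.0791 (limma). PLIN4 lies on chromosome 2 from 74318624 to 74331920, and its neighbour PLIN5 from 74304613 to 74314314, with 4309 bases between them.

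**Figure D1:**
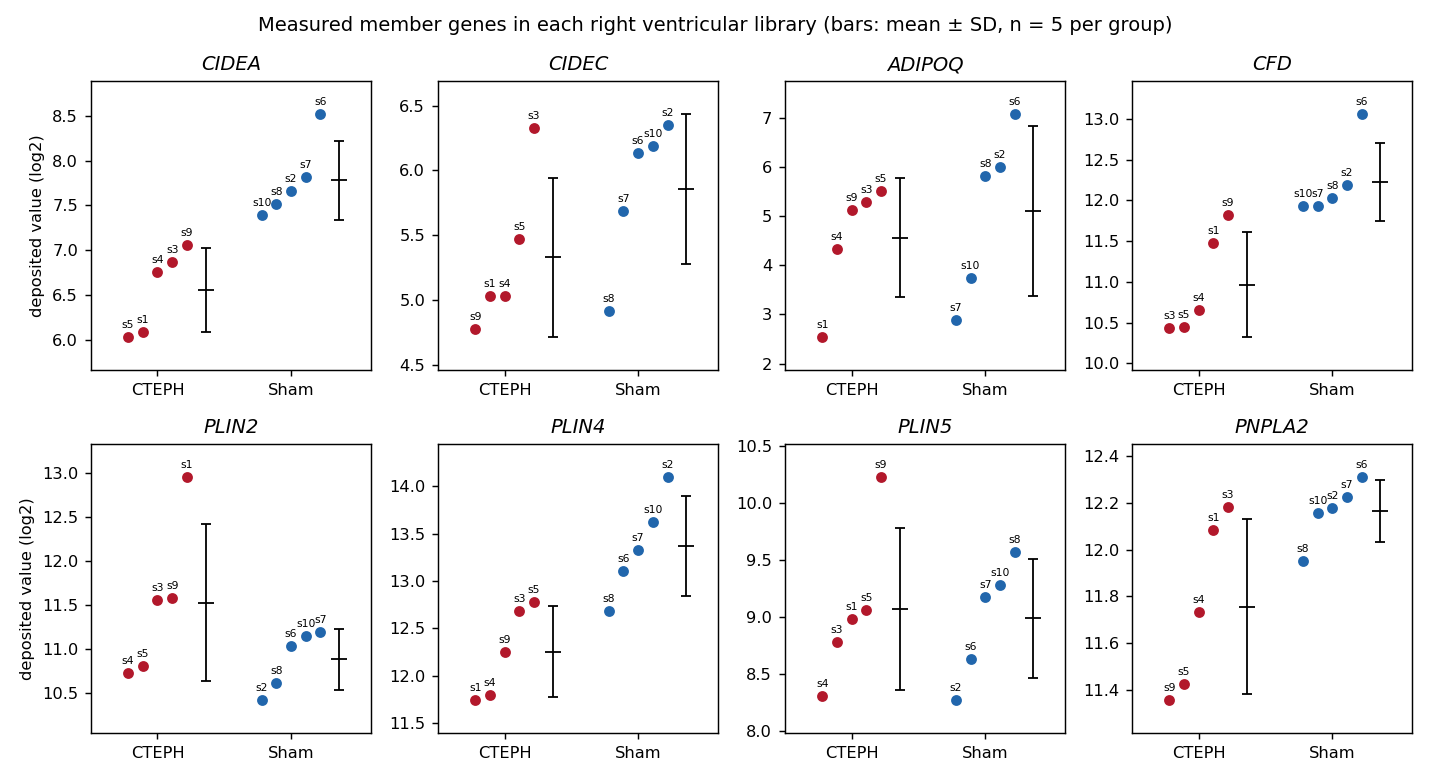
Deposited log2 value of each of the 8 measured members in every library, CTEPH in red and Sham in blue, with bars for the mean ± SD of 5 libraries. CIDEA and CFD show no overlap between groups, PLIN4 overlaps in a narrow band around 12.69, and the other 5 genes overlap.

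Some markers of other cell types also differed between the groups in which these 3 genes fell. Of 8 measured Schwann and neural markers 2 were called lower, SOX10 by 1.09 and L1CAM by 0.90 on the log2 scale (limma adjusted p = 0.0297 and 0.0302). The mean level of the 8, relative to each gene's mean, ranged from -0.75 to -0.004 in CTEPH and from 0.14 to 0.99 in Sham. Of 9 endothelial markers 1 fell, TEK by 0.78 (adjusted p = 0.0205, limma), with list levels of -0.47 to -0.06 in CTEPH and -0.17 to 0.63 in Sham. Leaving out 1 library at a time ended the call of SOX10 in 5 of 10 sets, of L1CAM in 6 and of TEK in 5, at adjusted p of up to 0.0772, 0.079 and 0.0576 (limma). None of the markers on these lists had a count of 0. Their part in the fall of CIDEA, CFD and PLIN4 was not tested. MYL2 rose by 0.99 among 10 cardiomyocyte markers and CNN1 by 1.98 among 10 smooth muscle and pericyte markers (limma adjusted p = 0.0173 and 0.0294), calls that ended in 1 and 6 of the same 10 sets. These 2 lists as a whole had median log2 differences of -0.01 and -0.11, with 5 of 10 genes negative in each. Cardiomyocyte levels overlapped, at -0.20 to 0.17 in CTEPH and -0.34 to 0.11 in Sham. Smooth muscle and pericyte levels also overlapped, at -0.58 to 0.48 in CTEPH and -0.22 to 0.11 in Sham. The fibroblast, macrophage, lymphocyte, neutrophil and mast cell, mesothelial and erythroid lists held no call by limma. Measured genes with an unadjusted p under 0.05 (limma) were 5 of 8 Schwann and neural, 4 of 9 endothelial and 2 of 10 cardiomyocyte genes. They were 4 of 10 smooth muscle and pericyte, 3 of 10 fibroblast, 3 of 9 macrophage and 0 of 7 lymphocyte genes. They were 3 of 4 neutrophil and mast cell, 1 of 2 mesothelial and 0 of 3 erythroid genes, against 20.3% of all genes. The level of the 2 mesothelial genes was -0.04 to 0.79 in CTEPH and -0.89 to -0.13 in Sham, without overlap. The levels of the fibroblast, macrophage, lymphocyte, neutrophil and mast cell, and erythroid lists overlapped between groups. The 11 measured fat cell markers outside the member list had levels of -0.37 to 0.29 in CTEPH and -0.24 to 0.23 in Sham.

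ADIPOQ and CIDEC did not pass. ADIPOQ, which encodes adiponectin, had values of 2.54, 5.30, 4.34, 5.53 and 5.14 (log2) in CTEPH libraries s1, s3, s4, s5 and s9, and of 6.01, 7.08, 2.89, 5.82 and 3.75 in Sham libraries s2, s6, s7, s8 and s10. These rest on few reads, with recovered counts of 2, 18, 16, 24 and 12 in the CTEPH libraries and 35, 101, 2, 23 and 5 in the Sham libraries. Both groups contain a library with 2 counts, s1 in CTEPH and s7 in Sham, and the spread within each group exceeds the difference between them. The log2 difference was -0.54 ± 0.79 (SE; limma adjusted p = 0.752), with a 95% interval of -2.25 to 1.17, so a fall as large as that of CFD lies inside it. It was -0.03 without CTEPH library s1, -0.05 without Sham library s6 and -1.10 without Sham library s7.

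CIDEC, which joins droplets into the single large droplet of white fat cells, had values of 5.03, 6.33, 5.03, 5.47 and 4.78 (log2) in CTEPH libraries s1, s3, s4, s5 and s9. In Sham libraries s2, s6, s7, s8 and s10 it had 6.35, 6.13, 5.69, 4.92 and 6.19. Its recovered counts were 9 to 38 in CTEPH and 12 to 53 in Sham, and the groups overlapped through CTEPH library s3 and Sham library s8. The log2 difference was -0.52 ± 0.38 (SE; limma adjusted p = 0.482), with a 95% interval of -1.35 to 0.30.

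**Figure D2:**
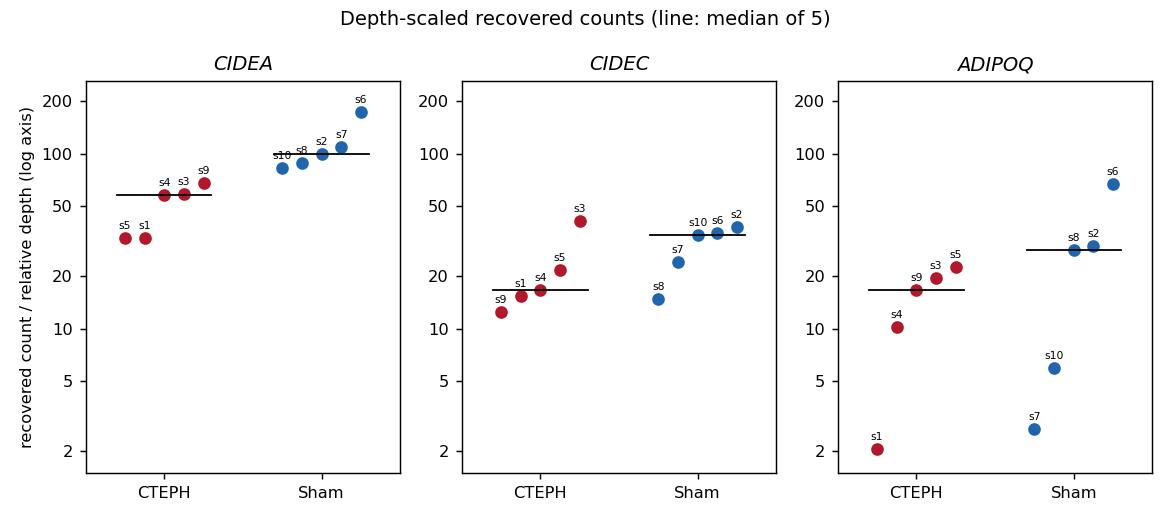
Recovered counts of CIDEA, CIDEC and ADIPOQ divided by relative depth, on a log axis, for each CTEPH (red) and Sham (blue) library, with a line at the median. CIDEA separates at 67.7 against 83.0, while ADIPOQ spans 2.05 to 22.5 in CTEPH and 2.67 to 66.9 in Sham.

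PLIN2, PLIN5 and PNPLA2, droplet genes that heart muscle also uses, gave no call. PLIN2, the perilipin that coats droplets in most cells, had values of 12.96, 11.56, 10.74, 10.81 and 11.58 (log2) in CTEPH libraries s1, s3, s4, s5 and s9, and of 10.43, 11.04, 11.20, 10.62 and 11.15 in Sham libraries s2, s6, s7, s8 and s10. The 3 highest values were from CTEPH, but s4 and s5 lay inside the Sham range. Its log2 difference was 0.64 ± 0.35 (SE; limma adjusted p = 0.327), and 0.29 without CTEPH library s1.

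PLIN5, which ties droplets to mitochondria in oxidative tissue, had values of 8.98, 8.79, 8.30, 9.06 and 10.23 (log2) in CTEPH libraries s1, s3, s4, s5 and s9, and of 8.28, 8.63, 9.17, 9.58 and 9.29 in Sham libraries s2, s6, s7, s8 and s10. The groups overlapped almost entirely, and the log2 difference was 0.08 ± 0.33 (SE; limma adjusted p = 0.919). The difference was -0.20 without CTEPH library s9. PLIN3, the remaining widely expressed perilipin, was looked up after its values were seen and differed by -0.08 ± 0.20 (adjusted p = 0.87, limma), by 0.05 without CTEPH library s5 and by 0.02 without Sham library s7.

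PNPLA2 encodes ATGL, the lipase that removes the first fatty acid from a stored triglyceride. It had values of 12.08, 12.18, 11.73, 11.42 and 11.36 (log2) in CTEPH libraries s1, s3, s4, s5 and s9. In Sham libraries s2, s6, s7, s8 and s10 it had 12.18, 12.31, 12.23, 11.95 and 12.16. CTEPH libraries s4, s5 and s9 were below all Sham libraries, and s1 and s3 were within the Sham range. The log2 difference was -0.41 ± 0.17 (SE), with an unadjusted p of 0.0321 and an adjusted p of 0.198 (limma).

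The change in CFD was set against that of every other member by subtracting log2 values within each library. Such a difference says nothing about which gene is more abundant, since the values are not per length, and it was compared between groups by a two-sided exact permutation test, adjusted over the 7 pairs. CFD minus PLIN2 was -1.48, -1.12, -0.08, -0.37 and 0.24 in CTEPH libraries s1, s3, s4, s5 and s9, and 1.76, 2.02, 0.73, 1.42 and 0.78 in Sham libraries s2, s6, s7, s8 and s10, with no overlap. The group difference was -1.91 (exact permutation p = 0.00794, the smallest this design allows, and 0.0556 adjusted). For CFD minus PLIN5 it was -1.35 (exact permutation p = 0.0159, adjusted 0.0556). Both contain the log2 difference of CFD itself, -1.26, beside 0.64 for PLIN2 and 0.08 for PLIN5. As CFD was known beforehand to be called, these comparisons are no independent support for its fall. None of the 7 passed after adjustment. A single pair at the smallest exact permutation p is adjusted to 0.0556 over 7 pairs, so no pair could pass alone. The comparisons with PLIN2 and PNPLA2 passed without CTEPH library s9, and those with PLIN2 and PLIN5 without Sham library s8. Each had an adjusted exact permutation p of 0.0278, reached only because both pairs of a set were at the smallest p together.

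Against CIDEA and PLIN4, the other members called lower, CFD showed little difference. This follows from their log2 differences of -1.22 and -1.12, near the -1.26 of CFD, and is no separate result. CFD minus CIDEA was 4.40 ± 0.719 for CTEPH libraries and 4.45 ± 0.187 for Sham libraries (SD, n = 5 per group), and the group difference was -0.04 (exact permutation p = 0.921). CFD minus PLIN4 was -1.29 ± 0.978 for CTEPH libraries and -1.14 ± 0.775 for Sham libraries (SD, n = 5 per group), a difference of -0.15 (exact permutation p = 0.786). Both changed sign in some sets without 1 library, within -0.29 to 0.17 for CIDEA and -0.40 to 0.13 for PLIN4. Against ADIPOQ and CIDEC the group differences were -0.72 and -0.74 (exact permutation p = 0.46 and 0.254), and against PNPLA2 it was -0.85 (exact permutation p = 0.0794). Without 1 library, CFD minus ADIPOQ lay between -1.36 (without CTEPH library s1) and -0.24 (without Sham library s7), and CFD minus CIDEC between -1.09 (without CTEPH library s9) and -0.35 (without CTEPH library s3). CFD minus PNPLA2 lay between -1.17 and -0.62, and passed without CTEPH library s9 (exact permutation, adjusted p = 0.0278). A p above the threshold does not show that 2 genes changed alike.

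**Figure D3:**
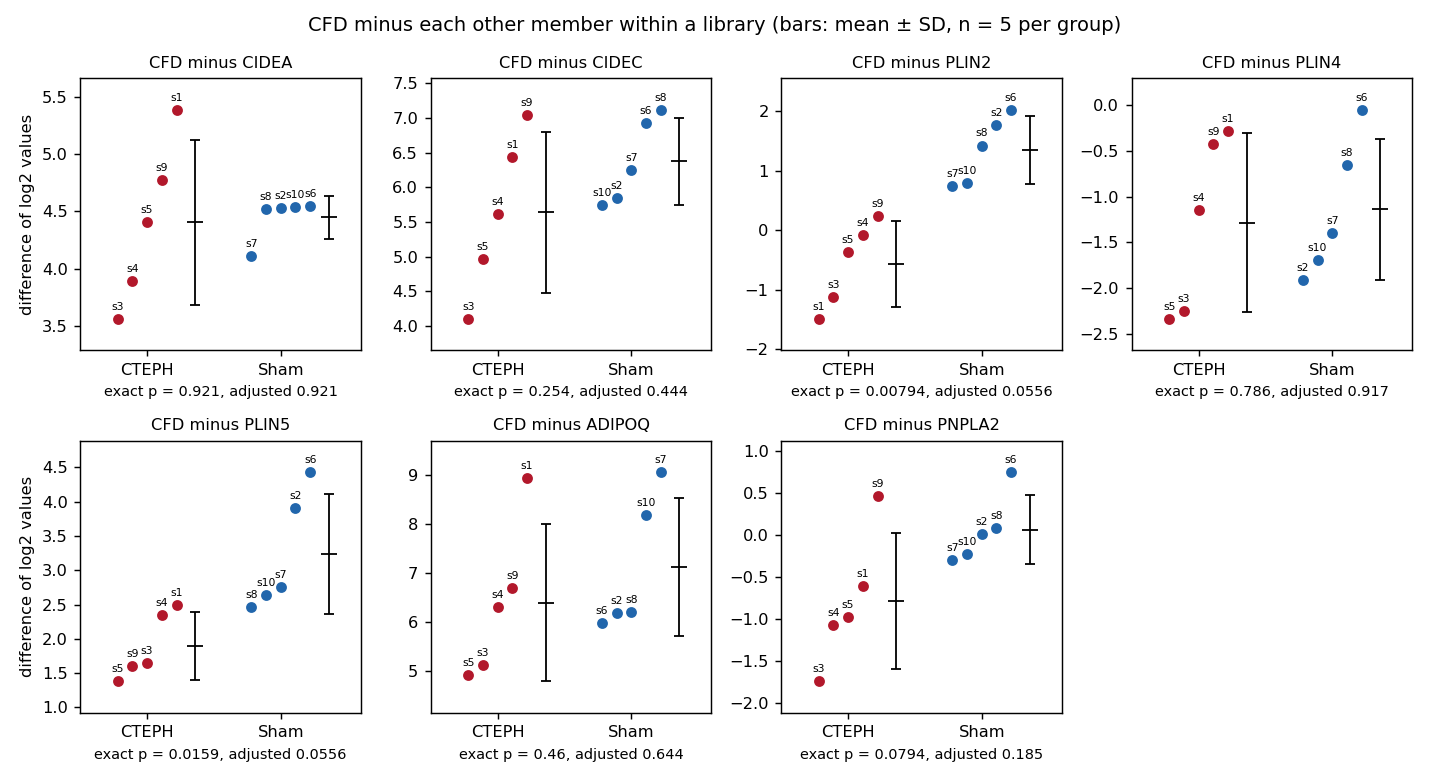
CFD minus each of the other 7 members within a library, as a difference of log2 values, CTEPH in red and Sham in blue, with bars for the mean ± SD of 5 libraries and the exact permutation p under each panel. The groups separate for PLIN2 and nearly so for PLIN5, and overlap for the other 5 genes.

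The genes around the members in lipid storage showed no call. Of 26 measured genes of lipid droplets and triglyceride synthesis, 0 passed (limma, Benjamini-Hochberg), 4 had an unadjusted p under 0.05, against 20.3% of all genes, and the median log2 difference was 0.04. The smallest p belonged to CCDC3 at 0.89 ± 0.27, LPIN2 at 0.41 ± 0.12 and the fatty acid elongase gene ELOVL6 at 0.92 ± 0.36 (adjusted p = 0.0775, 0.0778 and 0.166, limma). LPIN2, a phosphatidate phosphatase that makes the diglyceride precursor of stored fat, had 9.94, 9.91, 9.81, 9.93 and 9.75 (log2) in CTEPH libraries s1, s3, s4, s5 and s9. It had 9.54, 9.46, 9.55, 9.41 and 9.33 in Sham libraries s2, s6, s7, s8 and s10, so that the groups were tight and did not overlap, as for 3.70% of all genes with CTEPH higher.

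Of 14 measured genes of lipolysis, 0 passed (limma), 2 had an unadjusted p under 0.05 and the median log2 difference was -0.06. ABHD5, the protein that PNPLA2 needs for full activity, had values of 10.38, 10.38, 10.10, 10.92 and 10.44 (log2) in CTEPH libraries s1, s3, s4, s5 and s9 and of 9.96, 9.69, 9.97, 9.27 and 9.93 in Sham libraries s2, s6, s7, s8 and s10. All CTEPH libraries were above every Sham library, and the log2 difference of 0.68 ± 0.18 just missed the threshold (adjusted p = 0.0537, limma). G0S2, an inhibitor of PNPLA2 looked up after its values were seen, differed by 0.29 ± 0.30 (adjusted p = 0.64, limma). The monoglyceride lipase gene MGLL was at -0.43 ± 0.19, and LIPE, the hormone-sensitive lipase gene, at -0.60 ± 0.35 (adjusted p = 0.219 and 0.366, limma).

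Regulators of fat cell formation and the remaining fat cell markers likewise held no call. Of 15 measured regulators 0 passed (limma), with 2 at an unadjusted p under 0.05 and a median log2 difference of -0.10. PPARG, the master regulator of fat cell formation, was at 0.45 ± 0.21, EBF1 at -0.52 ± 0.18 and the lipogenic factor SREBF1 at -0.56 ± 0.25 (adjusted p = 0.254, 0.12 and 0.234, limma). Of the 11 fat cell markers outside the member list, several of which heart muscle or endothelium also expresses, 0 passed (limma), 1 had an unadjusted p under 0.05, the median was 0.05 and 5 of the 11 had a negative difference. FABP4, the fatty acid carrier of fat cells and capillary endothelium, was at 0.44 ± 0.21 and LPL, the lipase that frees fatty acids from blood lipoproteins, at 0.32 ± 0.13 (adjusted p = 0.262 and 0.202, limma).

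Among adipokines and their receptors, 1 of 14 measured genes was called higher and 0 lower (limma), 5 had an unadjusted p under 0.05 and the median was 0.13. The gene called higher was CMKLR1, the chemerin receptor, with 9.88, 10.14, 10.61, 11.07 and 9.50 (log2) in CTEPH libraries s1, s3, s4, s5 and s9 and 9.30, 9.14, 9.43, 8.23 and 8.97 in Sham libraries s2, s6, s7, s8 and s10. The groups did not overlap, and the log2 difference was 1.23 ± 0.29 (SE; limma adjusted p = 0.0325). The call was lost without CTEPH library s3, s4 or s5 or Sham library s2, s6, s8 or s10, at an adjusted p of up to 0.0825 (limma). SFRP5 was at -0.73 ± 0.31 (adjusted p = 0.199, limma).

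LEPR, the leptin receptor gene, did not pass. Its recovered counts were 4, 0, 10, 19 and 7 in CTEPH libraries s1, s3, s4, s5 and s9, against 61, 134, 22, 7 and 54 in Sham libraries s2, s6, s7, s8 and s10. Sham library s8 lay within the CTEPH range, and the log2 difference was -2.94 ± 0.86 (SE; limma adjusted p = 0.0731). It was -1.34 with an offset of 32 added to the unlogged values (limma adjusted p = 0.0436), and -2.14 without CTEPH library s3, which had a count of 0 (limma adjusted p = 0.0987).

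The alternative complement pathway, in which CFD acts, showed no call in the other genes. Of 10 measured genes 0 passed (limma), 2 had an unadjusted p under 0.05 and 3 had a negative difference, with a median of 0.23 on the log2 scale. VSIG4, a complement receptor of resident macrophages, was at 0.60 ± 0.20, and MASP1, whose products include a protease that activates adipsin, at 0.79 ± 0.30 (adjusted p = 0.12 and 0.156, limma). ITGB2, a chain of complement receptor 3, was at 0.41 ± 0.21 (adjusted p = 0.293, limma).

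**Figure D4:**
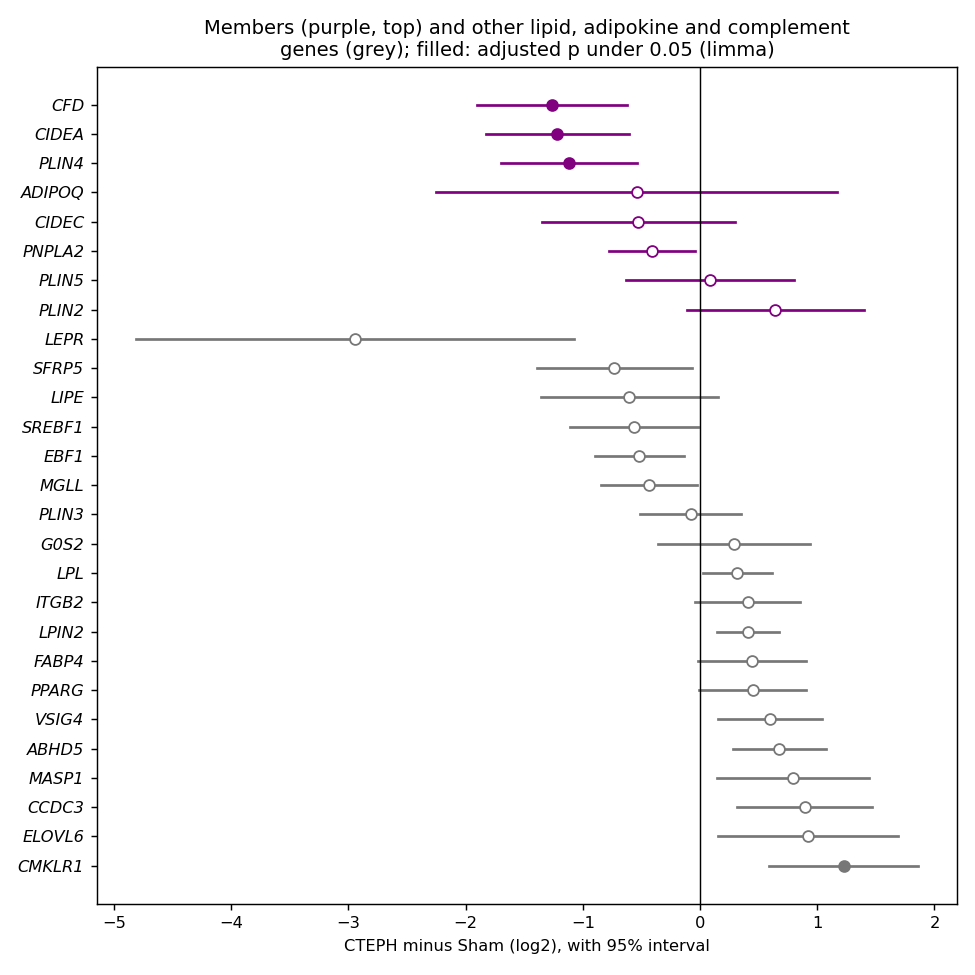
Log2 difference of CTEPH minus Sham with its 95% interval for the 8 members (purple, top) and the other named genes of lipid storage, lipolysis, adipokines and complement (grey), with filled points at an adjusted p under 0.05. CFD, CIDEA and PLIN4 lie near -1.2 with intervals below 0, CMKLR1 is the filled point above 0, and LEPR and ADIPOQ have the widest intervals.

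After the group means were subtracted, none of the 28 pairs of members was correlated over the 10 libraries at an adjusted p of 0.05 (permutation tests of Pearson r), and 1 had an unadjusted p under 0.05. That pair was CIDEC with PLIN4, at r = 0.750 (permutation p = 0.0199, adjusted 0.556) and Spearman rho = 0.742 (permutation p = 0.0222, adjusted 0.621). Without the 2 libraries farthest from the median of CIDEC, r was 0.606. ADIPOQ with CFD gave r = 0.173 and CIDEA with CFD gave r = 0.486 (permutation p = 0.631 and 0.157, adjusted 0.929 and 0.77). Their Spearman rho was -0.006 and 0.309 (permutation p = 1 and 0.436, adjusted 1 and 0.852), and r without the 2 farthest libraries was 0.435 and -0.403. Even the pair with r = 0.750 did not pass over these 10 libraries, so the tests do not show that members varied independently.

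**Figure D5:**
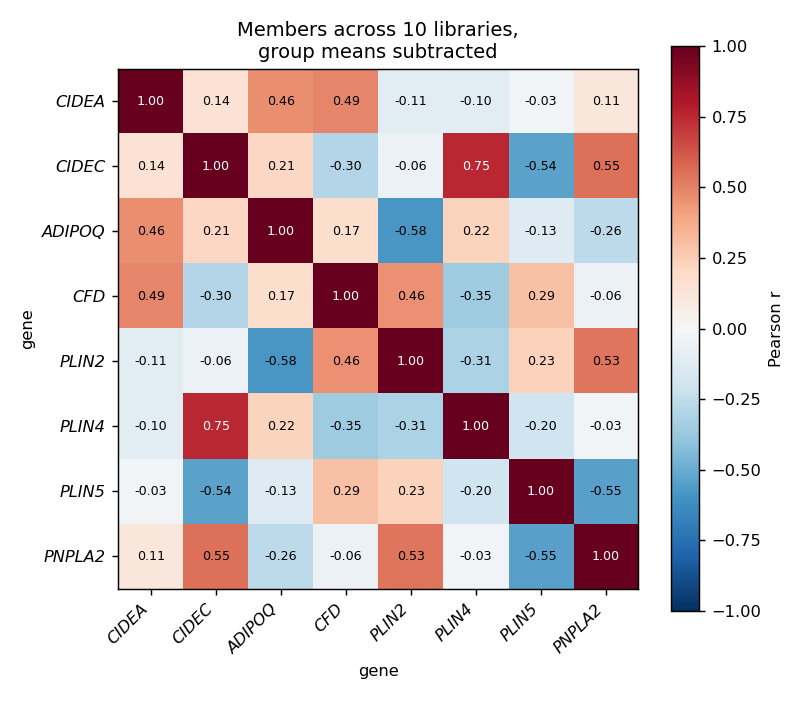
Pearson r between the 8 members over 10 libraries after subtraction of the group means, from -1 (blue) to 1 (red). The strongest pair is CIDEC with PLIN4 at 0.75, and CFD reaches 0.49 with CIDEA but 0.17 with ADIPOQ.

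The genes whose pattern was most like that of ADIPOQ and CFD were taken by the same measure over the 10 libraries and 12377 other genes with a symbol, and they are a description of these libraries with no test. For CFD they were PET100 (r = 0.939), DNPH1 (0.934), PPP1R3E (0.924), DUSP23 (0.923) and the ribosomal protein gene RPS29 (0.920). For ADIPOQ they were HASPIN (r = 0.954), SPN (0.898), STK33 (0.874), CD226 (0.874) and GPR158 (0.871). These rest on the few counts of ADIPOQ and of some matches, such as 1 for HASPIN in Sham libraries s7 and s10. GPR158 had a count of 0 in CTEPH library s1. With group means subtracted, likeness does not cover the change between groups. HASPIN was called higher in CTEPH, by 2.69 on the log2 scale (limma adjusted p = 0.0162), while ADIPOQ was not called. No fat cell marker of the lists was among the 10 genes.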

How the data were processed

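The deposited values are log2 expression values made by the authors, 1 per library for each Ensembl pig gene. Tools named in the submitters' processing notes are edgeR 3.36.0, limma 3.50.0, featureCounts, cutadapt 1.15, bcl2fastq 2.18.12 and FastQC 0.11.5, with the build Sscrofa11.1. The sources used here give no aligner, annotation, strand setting or low-gene filter. The labels give polyA RNA as the molecule but a total RNA kit for the libraries, so which was sequenced is not settled. The libraries have nearly equal distributions, as quantile normalization leaves, under which a change shared by most genes cannot appear.

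Symbols matched 12378 genes and left 3260 without one. Low values equalled quantile means of log2(2 × count + 1) with errors of at most 5.0e-10 (tolerance 1e-06), which gave back 82385 values (52.68%) as counts, up to a factor of 2. Library totals stay unknown, so relative depth came from 5692 genes with at least 5 counts everywhere.

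CTEPH was set against Sham by limma 3.58.1, run under R 4.3.3 (intensity trend, no covariate, two-sided), Benjamini-Hochberg adjusted over all genes, and calls need an adjusted p under 0.05. In simulated data the fit called 39.0%, 86.5% and 95.0% of genes changed by 1, 2 and 3 on the log2 scale. False calls were 2.50%, 6.99% and 3.06% of calls. The simulation changed only a small share of genes and used independent normal noise, so these shares need not hold for the real libraries. A change of 1 was often missed there, and the lack of a call does not show that a gene was unchanged. P-values measure the spread between pigs, 1 library each. Differences of CFD from another member were compared by exact permutation, over 252 assignments of the 10 libraries and fewer without 1 library. Correlations were tested by 100000 permutations within groups. Coordinates are counted from 1. With no strand setting stated, reads of overlapping antisense genes cannot be told apart.

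The members and gene lists were chosen with earlier results of these data known. The text names all measured members, called genes and the 3 smallest p of each lipid, adipokine and complement list and of the fat cell markers, the 5 genes most like ADIPOQ and CFD, and called genes of the cell type lists it mentions. Other names are marked as looked up later, and 1 gene of the lipolysis list is left out and not reported here. Alternatives were no variance trend, robust variances, library weights, leaving out the lowest 25% of genes, an offset of 32, re-centred libraries and leaving out each library.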

Additional observations from a re-analysis of the deposited data

Results flagged for a closer look

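CFD in Sham library s6 was flagged because its value of 13.06 (log2) stood far above the other 4 Sham libraries, with a gap of 0.772 of the group's range, over the limit of 0.710 for 5 samples. In the same library CIDEA (8.51), ADIPOQ (7.08) and PNPLA2 (12.31) were also the highest of the Sham group. Without it the log2 difference of CFD was -1.06 (adjusted p = 0.0665, limma with Benjamini-Hochberg). CFD minus CIDEA in Sham library s7 was flagged at 4.11, below 4 Sham libraries that lay between 4.52 and 4.54, with a gap of 0.953 of the range. These were 2 flags in 30 groups of 5 libraries looked at, where chance gives about 5% of groups.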

How the results depend on the processing

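Of 3 members called, 1 (CIDEA) passed with no variance trend, where CFD had an adjusted p of 0.0588 and PLIN4 of 0.0656 (limma). Robust variances, library weights, an offset of 32, re-centred libraries and leaving out the lowest 25% of genes kept all 3, and leaving out single libraries gave 0 to 3 called members, with 0 without CTEPH library s4 or Sham library s2 or s6. The log2 differences without 1 library ranged from -1.34 to -1.04 for CIDEA, -1.48 to -1.06 for CFD and -1.29 to -0.93 for PLIN4. Genes called higher numbered 722 with library weights, 273 without the lowest 25% of genes and 270 to 570 without 1 library. Genes called lower numbered 547 with library weights and 117 to 392 without 1 library. With library weights PLIN5 was at -0.13 and ADIPOQ at 0.01. Without 1 library PLIN5 ranged from -0.20 to 0.28, PLIN3 from -0.20 to 0.05, CFD minus CIDEA from -0.29 to 0.17 and CFD minus PLIN4 from -0.40 to 0.13. The number of CFD differences that passed ranged from 0 to 2. Of the other named genes, CCDC3, LPIN2 and LEPR passed with library weights (adjusted p = 0.0237, 0.0445 and 0.0265), LEPR with an offset of 32 (0.0436) and ABHD5 with re-centred libraries (0.0468; limma), and CCDC3 passed without CTEPH library s1 or s9 (0.0436 and 0.0409) and LEPR without Sham library s8 (0.0488). The calls of CMKLR1 and CNN1 were lost with no variance trend (both 0.0595), CNN1 with robust variances (0.0543) and SOX10 on recovered counts (0.056; limma). The causes were not tested. ADIPOQ, CIDEC, LEPR, SFRP5, G0S2 and SOX10 fall among the lowest 25% of genes and have no value without these, and differences of genes named for likeness alone were not recomputed. No paired analysis was made because the labels give no pairing of CTEPH with Sham pigs. Low counts limit ADIPOQ, CIDEC, LEPR and SFRP5, and the fit on recovered counts was added after the data were seen.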

Other observations

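PDK4 and ANGPTL4 were looked up after PLIN2 was seen to be highest in CTEPH library s1. PDK4, the kinase that restrains pyruvate oxidation, had 17.84 (log2) in s1 and 12.75 to 14.29 elsewhere in CTEPH, against 11.59 to 13.69 over Sham. ANGPTL4, an inhibitor of lipoprotein lipase, had 10.38 in s1 and 10.41 in s9, against 8.26 to 9.41 elsewhere in CTEPH and 8.51 to 9.29 over Sham. The same library s1 had the lowest ADIPOQ (2.54) and PLIN4 (11.75) of the 10 libraries.

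By the measure used for CFD and ADIPOQ, and chosen after the data were seen, the gene most like PLIN2 was WDR5 (r = 0.969), the gene most like PLIN4 was MECR (0.949), which encodes an enzyme of mitochondrial fatty acid synthesis, and the gene most like CIDEA was PLCD3 (0.914), each over 10 libraries with group means subtracted and no test.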
